A study of Drosophila melanogaster with 2 samples.

Results

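Promoter-proximal Gcm peaks are those whose summit, the position of highest signal, lay more than 500 and at most 2000 bp from the nearest transcription start site (TSS) of a protein-coding gene. They made up 1144 of the 5707 peaks in the list that the authors thresholded by IDR, the irreproducible discovery rate, a score of how well peaks keep their rank when an experiment is repeated. Of these, 625 lay downstream of that TSS, in the direction of transcription, and 519 lay upstream of it. The nearest TSS was sought over all annotated transcripts, so it need not be the first start site of its gene, and beyond the authors' threshold no measured height entered the choice. The remaining peaks were 2253 promoter peaks, within 500 bp of a TSS, and 2310 distal peaks, over 2000 bp from one.

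The peaks came from chromatin immunoprecipitation with sequencing (ChIP-seq) of whole Drosophila melanogaster embryos, males and females mixed, aged 0 to 16 hours. The embryos belonged to the strain gcm-GFP, a stable transgenic line in which Gcm carries green fluorescent protein at its C-terminus, and chromatin was precipitated with an antibody against that tag. There was 1 group of 2 biological replicates, numbered 1 and 3, which share 1 donor label, so the design holds no comparison between conditions. The control named in the labels was not analysed here, the labels do not say which sequences drive the transgene, and a whole-embryo sample does not say in which cells a site was bound.

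Gcm, glial cells missing, is a zinc-containing transcription factor of the GCM family that directs neural precursors to a glial fate and also acts in embryonic blood cell precursors. Its DNA-binding domain recognises a short GC-rich word, and its known targets in glia include repo, pnt, loco and ttk. A transcription factor can bind at the promoter itself or at enhancers, and in the compact fly genome many enhancers lie in the first introns or in the short space between genes.

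The Gcm word sought here has the forms ATGCGGGT and ATGCGGGC, with their variants ATACGGGT and ATACGGGC, on either strand. Windows reaching 100 bases to either side of 8 summits are shown, from the dm6 assembly, 5′ to 3′ on the strand given, with the Gcm word in capitals. CG9663, Alh and drpr were among the highest downstream peaks with the word, and Abd-B and mira among the highest upstream peaks with it. The loco window is shown because loco is a known Gcm target, and CG11050 and cbt because they were the highest peak of each side while holding no such word.
CG9663 (chr2L:3302087-3302287, plus strand): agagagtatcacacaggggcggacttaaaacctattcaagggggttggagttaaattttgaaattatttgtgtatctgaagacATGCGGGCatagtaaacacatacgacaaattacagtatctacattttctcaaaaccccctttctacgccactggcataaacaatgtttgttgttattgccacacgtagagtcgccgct
Alh (chr3R:7122704-7122904, plus strand): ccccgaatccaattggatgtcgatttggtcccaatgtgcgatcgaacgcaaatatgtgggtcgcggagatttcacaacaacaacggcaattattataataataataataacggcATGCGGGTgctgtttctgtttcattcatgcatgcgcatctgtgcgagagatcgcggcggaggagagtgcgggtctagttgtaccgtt
drpr (chr3L:1729971-1730171, plus strand): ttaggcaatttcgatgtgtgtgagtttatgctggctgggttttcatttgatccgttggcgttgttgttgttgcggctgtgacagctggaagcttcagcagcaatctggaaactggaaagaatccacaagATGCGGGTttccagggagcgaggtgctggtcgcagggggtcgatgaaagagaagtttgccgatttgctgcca
CG11050 (chr2L:6612602-6612802, plus strand): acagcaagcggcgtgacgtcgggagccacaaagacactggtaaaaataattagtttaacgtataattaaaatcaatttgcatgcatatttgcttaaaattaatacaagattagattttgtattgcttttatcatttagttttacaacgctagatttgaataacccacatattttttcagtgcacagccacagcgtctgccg
Abd-B (chr3R:16970121-16970321, minus strand): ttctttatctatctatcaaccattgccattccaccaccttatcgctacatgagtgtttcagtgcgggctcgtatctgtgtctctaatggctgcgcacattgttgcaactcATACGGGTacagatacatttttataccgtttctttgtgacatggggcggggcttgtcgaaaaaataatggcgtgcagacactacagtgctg
mira (chr3R:19935891-19936091, minus strand): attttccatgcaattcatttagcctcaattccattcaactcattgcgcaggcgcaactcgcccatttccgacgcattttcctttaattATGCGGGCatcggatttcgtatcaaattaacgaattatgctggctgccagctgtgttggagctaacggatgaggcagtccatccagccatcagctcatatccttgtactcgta
loco (chr3R:22628198-22628398, plus strand): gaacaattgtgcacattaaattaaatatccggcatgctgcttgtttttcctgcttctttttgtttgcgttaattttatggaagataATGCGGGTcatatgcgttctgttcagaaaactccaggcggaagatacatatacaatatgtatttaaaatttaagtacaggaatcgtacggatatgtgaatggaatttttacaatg
cbt (chr2L:480971-481171, plus strand): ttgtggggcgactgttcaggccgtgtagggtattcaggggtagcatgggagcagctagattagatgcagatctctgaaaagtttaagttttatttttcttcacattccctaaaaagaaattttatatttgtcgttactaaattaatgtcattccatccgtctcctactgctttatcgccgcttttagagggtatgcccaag

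Promoter-proximal summits were somewhat fewer than their share of the genome, lower downstream and higher upstream, and far sparser than summits at promoters. They were 1144 of 5707 IDR-thresholded summits, a fraction with a 95% exact Clopper-Pearson interval of 19.0% to 21.1%, while 21.6% of the bases of the 6 chromosome arms lie at that distance. The downstream side held 11.0% of summits (10.2 to 11.8) on 13.3% of bases, and the upstream side 9.09% (8.36 to 9.87) on 8.30% of bases. Per megabase there were 35.2 downstream and 46.7 upstream summits, against 147 at promoters and 25.8 at distal positions. Among each replicate's own 5707 strongest peaks, the promoter-proximal number was 1133 in replicate 1 and 1165 in replicate 3, a share of 20.1% ± 0.396 (SD, n = 2). The upstream share of these was 44.7% in replicate 1 and 45.4% in replicate 3, against 38.5% of the bases at that distance.

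**Figure D1:**
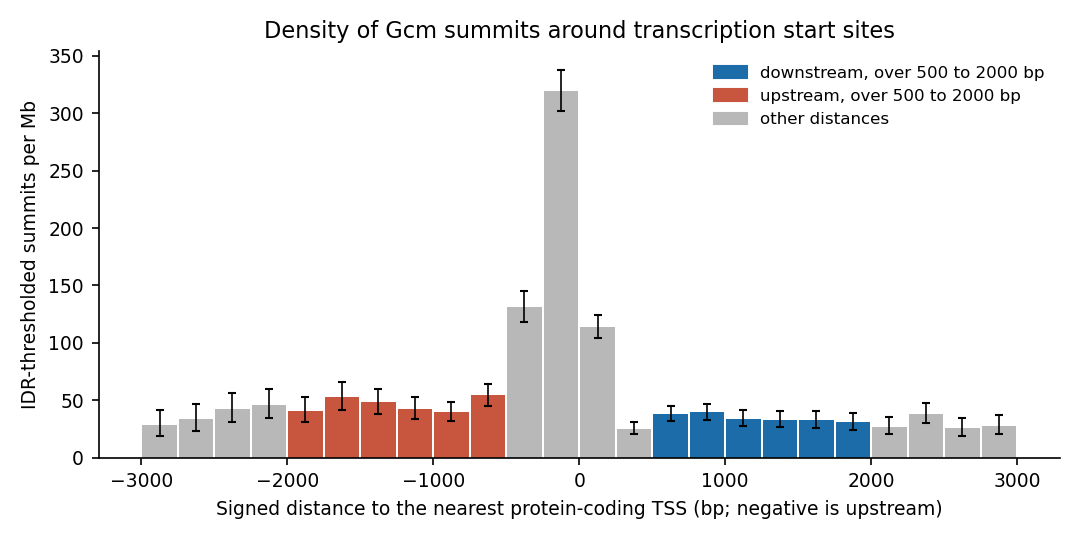
IDR-thresholded summits per megabase of genome (y axis) by signed distance to the nearest protein-coding TSS in bp (x axis, bins of 250 bp), with downstream promoter-proximal bins in blue, upstream ones in red and other distances in grey; bars start at 0 and error lines are 95% Poisson intervals. The upstream proximal bins run between 39.6 and 54.3 summits per megabase and the downstream ones between 31.0 and 39.8, while the bin just upstream of the TSS reaches 319.

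The profile fell steeply outside the promoter and was then nearly flat. The first 250 bp upstream of a TSS held 319 summits per megabase and the bin at 250 to 500 bp upstream held 131. The upstream bin at 500 to 750 bp held 54.3 (95% Poisson interval 45.5 to 64.2), and the one at 1750 to 2000 bp held 40.8 (30.8 to 52.9). On the downstream side the bin at 250 to 500 bp, with 25.5 (20.8 to 30.9), was sparser than the bin at 500 to 750 bp, with 38.0 (32.0 to 44.8). The downstream density then lay at 31.0 (24.2 to 39.1) in the bin at 1750 to 2000 bp. At the lower bound, the nearest members were at CG10479 (502 bp upstream), Hsc70-3 (504 bp upstream) and mats (504 bp downstream), with signals of 938, 271 and 196. Just outside it lay summits at CG5854 (500 bp downstream), rhea (499 bp downstream) and Mkp3 (499 bp upstream), with signals of 437, 329 and 703. At the upper bound, the members farthest out were at shot and CG5521 (both 1995 bp downstream) and CG4218 (1987 bp downstream), with signals of 213, 226 and 1024. Just beyond it lay summits at RhoGAP18B (2003 bp downstream), NFAT (2012 bp downstream) and CG10939 (2014 bp upstream), with signals of 589, 423 and 2309.

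Introns held most of the downstream peaks and about as large a share of the upstream peaks as of the whole list. Of the downstream summits, 510 (81.6%) lay in introns, 33 in intergenic sequence, 27 in coding exons, 31 in 5′ UTRs and 24 in 3′ UTRs. Of the upstream summits, 259 (49.9%) lay in introns and 242 (46.6%) between genes, and 4 lay in coding exons, 3 in 5′ UTRs and 11 in 3′ UTRs. The intronic share was 49.4% of all IDR-thresholded peaks and 61.5% of distal peaks. The body of the gene whose TSS was nearest held 576 downstream summits (92.2%) and 198 upstream ones (38.2%), and each of these 198 lay upstream of an alternative TSS inside its gene. A further 16 downstream and 79 upstream summits (15.2%) lay only in the body of a different protein-coding gene. An example is the peak 1383 bp upstream of cbt, a zinc finger transcription factor gene, which lay in an intron of ush.

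Set against the sequence available, intron densities differed between the sides by less than their intervals, and intergenic densities by more. Introns held 73.5 downstream summits per megabase (95% Poisson interval 67.2 to 80.1) and 75.9 upstream summits (66.9 to 85.7). Intergenic sequence held 26.7 downstream (18.4 to 37.5) and 50.7 upstream (44.5 to 57.5). Exons held 8.57 downstream (6.82 to 10.6) and 6.15 upstream (3.64 to 9.72), the lowest density of each side. Exons made up 53.9% of the downstream bases and 26.3% of the upstream bases at this distance.

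**Figure D2:**
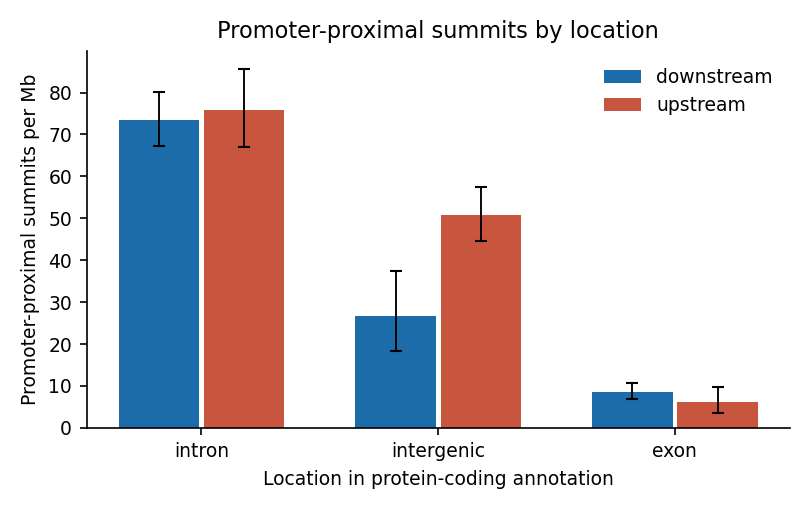
Promoter-proximal summits per megabase (y axis) in introns, intergenic sequence and exons of protein-coding genes (x axis), with downstream bars in blue left of upstream bars in red; bars start at 0 and error lines are 95% Poisson intervals. Intron bars reach 73.5 downstream and 75.9 upstream, intergenic bars 26.7 and 50.7, and exon bars 8.57 and 6.15.

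The arms held the peaks roughly in proportion to their bases, with a difference between the sides on arm 3R. That arm held 175 downstream summits (28.0%, on 24.0% of the downstream bases) and 103 upstream summits (19.8%, on 23.5% of the upstream bases). The difference was 8.15 percentage points (95% interval by the normal approximation 3.24 to 13.1), one of 6 arms compared. Arm 4 held 0 downstream summits, which allows a share of up to 0.480% by 3 counts (95% exact upper limit 0.588%), and 4 upstream summits. The X chromosome held 18.1% of the promoter-proximal peaks and 15.2% of the rest of the list, a difference of 2.91 points (0.445 to 5.37). This too was one of 6 arms compared. At this distance the X held 17.7% of the downstream and 18.0% of the upstream bases, near its share of the promoter-proximal peaks.

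Peak height was described by the authors' signal, a score per peak that is never negative and whose scale differs between lists. The promoter-proximal peaks had a median signal of 306, against 316 for promoter peaks and 284 for distal peaks, within a range of 191 to 3369. The median was 304 downstream and 307 upstream. Among the 1141 highest peaks of the list were 20.4% of the promoter-proximal peaks, 24.3% of the promoter peaks and 15.6% of the distal peaks. That share differed by -3.91 points from that of promoters (95% interval -6.84 to -0.982) and by 4.74 points from that of distal peaks (1.98 to 7.50). The downstream share was 18.4% and the upstream share 22.7%, a difference of -4.34 points whose interval, -9.05 to 0.379, included 0.

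The highest downstream peaks lay in introns of the genes they were nearest to. The peak 1015 bp downstream of a TSS of CG11050 (chr2L:6612385-6612946) had a signal of 3369 and ranked 3 of all peaks, with 1927 in the list of replicate 1 and 1452 in that of replicate 3. Next was the peak 1515 bp downstream of Trl (chr3L:14759296-14759812), the gene of the GAGA factor, with a signal of 2534, and with 1366 in replicate 1 and 1177 in replicate 3. Then followed CG32772 with 2239, CG9663 with 2178, CG31635 with 1915 and simj, which encodes a subunit of a nucleosome remodelling complex, with 1797. Of these 6 peaks, the one at CG9663 held the Gcm word, 13.5 bp from its summit. In replicate 1 it had a signal of 1133 and in replicate 3 of 1011.

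The highest upstream peaks lay between genes as well as in introns. The peak upstream of cbt (chr2L:480843-481438) had a signal of 3309 and ranked 4, with 1977 in replicate 1 and 1290 in replicate 3. The peak 970 bp upstream of a TSS of Lk6 (chr3R:11760842-11761433), a kinase gene, had a signal of 2397, and the intergenic peak 750 bp upstream of jp, which encodes junctophilin, 2051. The peak 1647 bp upstream of a TSS of the Hox gene Abd-B (chr3R:16969816-16970459) had a signal of 1905, with 1063 in replicate 1 and 820 in replicate 3, and held the Gcm word. HmgZ, an HMG-box protein gene, followed with 1895 and chif with 1701.

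Promoter-proximal peaks were found in both replicates about as often as the other peaks of the list. That list was made from both replicates, and all 5707 of its peaks were among the 5707 highest of the pooled list by signal. At least 1 bp of 932 (81.5%) overlapped the 5707 strongest peaks of each replicate, beside 79.7% of all IDR-thresholded peaks. The share was 81.6% downstream and 81.3% upstream, a difference of 0.290 points (95% interval -4.24 to 4.81). In the whole replicate lists of 30000 peaks, 1135 (99.2%) overlapped a peak of both, beside 99.0% of all IDR-thresholded peaks. Over these 1135 peaks, the signals in the 2 replicates had a Spearman rho of 0.815, a description across peaks that share their libraries.

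**Figure D3:**
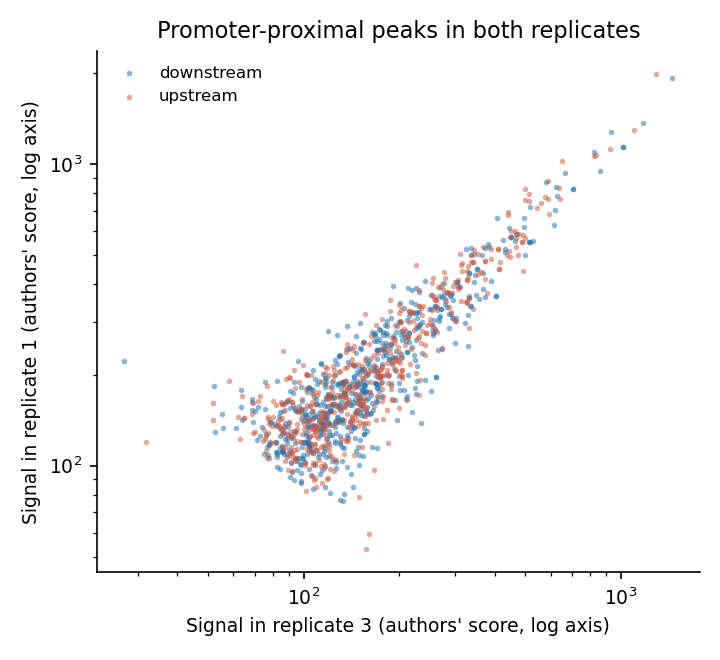
Signal of the highest overlapping peak in replicate 1 (y axis) against replicate 3 (x axis) for the 1135 promoter-proximal peaks found in both, on log axes in the authors' units, with downstream peaks in blue and upstream peaks in red. The scales of the lists differ, and the points rise together with a Spearman rho of 0.815.

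The Gcm word was found at 118 of the 1144 promoter-proximal summits and was rare beside them. Within 100 bp of the summit, 65 downstream peaks (10.4%, 95% exact interval 8.12 to 13.1) held it, against 10 (1.60%) of the equal windows centred 1000 bp to the left. Upstream, 53 peaks (10.2%, 7.74 to 13.1) held it, against 0 of 519 left windows, which allows a share of up to 0.578% by 3 counts (95% exact upper limit 0.708%). Both differences passed the exact McNemar test with Benjamini-Hochberg adjustment over 24 tests (adjusted p = 1.23e-10 downstream and 5.33e-15 upstream). The windows 1000 bp to the right held it at 8 downstream peaks (1.28%) and 5 upstream peaks (0.963%). Of all windows of that width tiled over the arms, 0.996% held the word, and at this distance from a TSS 1.21% of downstream and 1.04% of upstream windows did. Among each replicate's own strongest peaks, the downstream share was 9.90% in replicate 1 and 11.0% in replicate 3, and the upstream share 9.66% and 9.64%. Peaks are not replicates, so these p-values and intervals cover counting over peaks and say nothing of the spread between flies.

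The downstream and upstream shares differed by 0.188 points (95% interval -3.35 to 3.73). Over the whole IDR-thresholded list the share was 9.76%, so the promoter-proximal share of 10.3% lay near it, between the other distances. It was 5.83 points above the 4.48% of promoter peaks (3.87 to 7.79) and differed by -4.32 points from the 14.6% of distal peaks (-6.59 to -2.04). By distance, the downstream share was 12.8% at 500 to 750 bp, 11.1% at 750 to 1000 bp, 7.18% at 1000 to 1500 bp and 11.7% at 1500 to 2000 bp. In the same bands, 9 of 136, 12 of 86, 18 of 161 and 14 of 136 upstream peaks held the word, between 6.62% and 13.95%. The intervals of all 8 bands overlapped, so no trend with distance could be read from them.

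**Figure D4:**
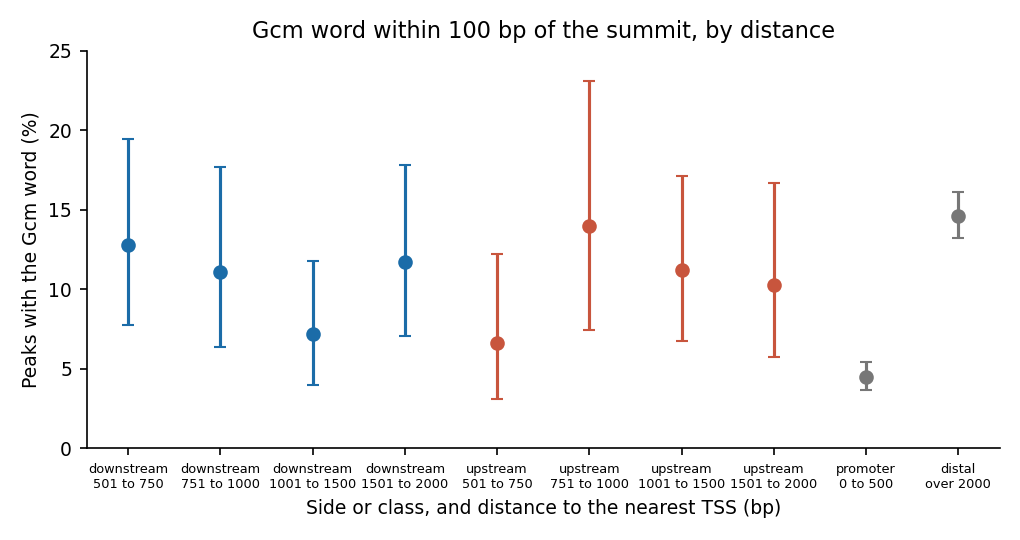
Share of peaks with the Gcm word within 100 bp of the summit in percent (y axis) by side or class and distance to the nearest TSS in bp (x axis), downstream bands in blue, upstream bands in red, promoter and distal peaks in grey; points are shares and error lines 95% exact intervals. The 8 promoter-proximal bands lie between 6.62% and 13.95%, promoter peaks at 4.48% and distal peaks at 14.6%.

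Where the word was present, it lay close to the summit. Within 250 bp of the summits there were 162 words, of which 101 (62.3%, 95% exact interval 54.4 to 69.8) lay within 50 bp. The median distance was 29.5 bp downstream and 39.5 bp upstream. Of the 118 peaks with the word within 100 bp, 114 held 1 word and 4 held 2. On the strand of the nearest gene lay 67 of the 122 words (54.9%, 45.7 to 63.9), an interval that includes equal use of both strands. ATGCGGGT was found at 34 downstream peaks and 20 upstream peaks. ATGCGGGC was found at 24 downstream and 27 upstream peaks, and each of the forms with A in the third place at 6 peaks or fewer per side.

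In the IDR-thresholded list, peaks with the word had higher median signals on both sides, without a test. The downstream median was 358 with the word and 296 without it, and the upstream median 330 with it and 305 without it. In the lists of single replicates the downstream medians were 189 with and 175 without the word in replicate 1, and 154 with and 140 without it in replicate 3. Upstream they were 171 with and 181 without it in replicate 1, the other way round, and 168 with and 146 without it in replicate 3. The median GC content of the window was 45.3% with the word and 35.8% without it. The part of GC content in the difference in signal was not tested. Ordered by signal in 5 bins of 228 or 229 peaks, strongest first, the share with the word was 12.3%, 12.2%, 11.4%, 8.30% and 7.42%, and the exact intervals of the first bin (8.32 to 17.3) and the last (4.38 to 11.6) overlapped. Upstream, 32 of 259 intronic summits (12.4%) and 17 of 242 intergenic ones (7.02%) held the word, a difference of 5.33 points (95% interval 0.190 to 10.5). Downstream, 43 of 510 intronic (8.43%) and 4 of 33 intergenic summits (12.1%) held it, a difference of -3.69 points (-15.1 to 7.70).

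The peaks of drpr and mira were among the highest that held the word. The peak 1036 bp downstream of the TSS of drpr (chr3L:1729817-1730387), which encodes the Draper receptor through which glia engulf debris, had a signal of 1063, with 553 in replicate 1 and 513 in replicate 3, and its word lay 32.5 bp from the summit. The peak 871 bp upstream of mira (chr3R:19935806-19936214), the gene of the adaptor Miranda in dividing neuroblasts, lay in an intron of Hs6st and had a signal of 745, with 412 in replicate 1 and 326 in replicate 3. Its word lay 8.5 bp from the summit. The word was also found at the peaks of Alh (signal 1551), CtsL1, a cathepsin L gene (867), Argk1, an arginine kinase gene (1078), and plx (801). The peaks of drpr, CG9663 and Alh each shared their interval with a second summit, of signal 203, 854 and 303, so their replicate values belong to both summits together. For Alh (chr3R:7122452-7123179) these were 828 in replicate 1 and 708 in replicate 3.

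Of the genes known in connection with Gcm, 4 of 6 (95% exact interval 22.3% to 95.7%) were the nearest gene of at least 1 promoter-proximal peak. Beside this stood 6.71% of all protein-coding genes, not matched for gene length or number of TSS. The 6 genes were chosen with earlier results of these data known, so the interval measures no sampling of genes. The gene loco, a regulator of G-protein signalling expressed in glia, had 3 promoter-proximal peaks. The one 1664 bp upstream of a TSS of loco (chr3R:22627972-22628466) held the word and had a signal of 509, with 252 in replicate 1 and 241 in replicate 3. The other 2, at 711 and 1726 bp downstream, had signals of 264 and 316 and no word. The ETS factor gene pnt had 4 peaks, with signals of 446, 290 and 268 at 507, 1698 and 968 bp downstream and 258 at 868 bp upstream. The peak 1296 bp upstream of repo, the homeobox gene of glia, had a signal of 421, with 229 in replicate 1 and 197 in replicate 3. The peak 1305 bp upstream of gcm2, the paralog of gcm, had 361, with 255 in replicate 1 and 154 in replicate 3. The peaks at pnt, repo and gcm2 held no Gcm word within 100 bp, and gcm and ttk were the nearest gene of none.

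A GATA word, AGATAA on either strand, passed the test against the left windows upstream, and of the 12 motifs it was the other one to pass besides Gcm at these settings. It was found at 102 upstream summits (19.7%, 95% exact interval 16.3 to 23.3) against 52 of the 519 left windows, with an adjusted p of 0.000264 by the exact McNemar test. Downstream it was found at 104 summits (16.6%, 13.8 to 19.8) against 74 left windows (11.8%), with an adjusted p of 0.101. Against the right windows the adjusted p of the exact McNemar test was 0.0306 on each side. The upstream call was lost with windows of 50 bp on each side of the summit (adjusted p = 0.0617, exact McNemar test), where the downstream side passed (0.00875), and with an upper distance of 1500 bp (0.0805 upstream). The sides differed by -3.01 points (-7.51 to 1.48), so a difference between them was not shown. GATA factors include Serpent, which acts in fly blood cells and fat body. Over all IDR-thresholded summits 14.8% held the word, and the promoter-proximal share of 18.0% was 5.09 points above promoter peaks (2.47 to 7.71) and 2.94 points above distal peaks (0.280 to 5.60). The GATA word was found at 17.8% of the promoter-proximal peaks with the Gcm word and 18.0% of those without it, a difference of -0.235 points (-7.53 to 7.06).

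**Figure D5:**
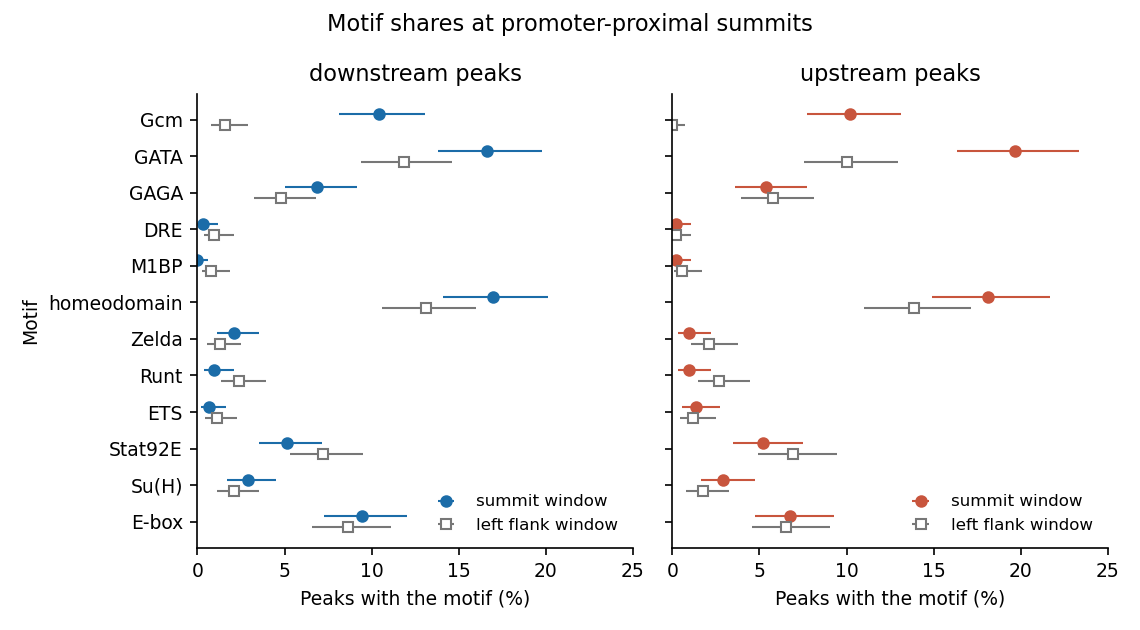
Share of promoter-proximal peaks holding each of 12 motifs in percent (x axis), for the summit window (filled circles) and the window 1000 bp to the left (open squares), with downstream peaks in the left panel and upstream peaks in the right one; error lines are 95% exact intervals. The Gcm word stands at 10.4% of downstream and 10.2% of upstream summits against 1.60% and 0% of the left windows.

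The words of core promoter factors were rarer than at promoters, and the intervals of their differences from distal peaks included 0. DRE, with the word TATCGATA bound by DREF, was found at 0.262% of promoter-proximal summits and 5.06% of promoter summits, a difference of -4.80 points (-5.75 to -3.85). At distal summits it stood at 0.390% (difference -0.127, interval -0.518 to 0.263), and in tiled windows at this distance at 0.315% downstream and 0.443% upstream. The M1BP word GGTCACACT was found at 0.0874% of promoter-proximal and 2.62% of promoter summits, a difference of -2.53 points (-3.21 to -1.85), and at 0.173% of distal summits (difference -0.0857, interval -0.327 to 0.155). The E-box word also differed from promoters by -4.30 points (-6.40 to -2.20), GAGA by -1.83 (-3.62 to -0.0346) and Runt by -1.04 (-1.84 to -0.227). The Gcm and GATA words differed the other way. A homeodomain word, TAATTA, stood at 17.0% of downstream and 18.1% of upstream summits beside 16.7% of all IDR-thresholded summits, and passed the exact McNemar test on neither side (adjusted p = 0.209 on each). GAGAGAG, the word of GAGA factor, was found at 6.88% of downstream and 5.39% of upstream summits, with adjusted p-values of 0.323 and 1. The words for Zelda, Runt, ETS factors, Stat92E, Su(H) and the E-box did not pass on either side either.

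Promoter-proximal peaks often had company. Another IDR-thresholded summit lay within 2000 bp of 565 of them (49.4%), beside 38.1% of all peaks in the list. This was 16.1 points above promoter peaks (95% interval 12.6 to 19.6) and 12.2 points above distal peaks (8.65 to 15.7). By the distance rule, a TSS lay within 2000 bp of every promoter-proximal summit, and summits were densest at promoters (147 per megabase). How far the rule itself raised the share was not tested. The share was 51.4% downstream and 47.0% upstream, a difference of 4.35 points (-1.47 to 10.2). The nearest gene of 542 promoter-proximal peaks (47.4%) also had a summit within 500 bp of one of its TSS, beside 18.9% of all protein-coding genes. Counted by gene, it was 400 of the 936 nearest genes (42.7%, 95% exact interval 39.5% to 46.0%). The share of peaks was 28.0% with 1 TSS per gene, and 27.3% among the 2853 highest peaks, where fewer promoter peaks entered. The 18.9% of all genes counts all TSS and the whole list, so it is no background for these shares. It was not matched for the number of TSS per gene either. The full share was 51.0% downstream and 43.0% upstream, 8.07 points apart (2.29 to 13.9).

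At these 542 peaks, which lay at 400 genes, the proximal peak could be set beside the highest promoter peak over all TSS of its gene. Taking the highest favours the promoter peak where a gene has several. The proximal peak had the higher signal in 236 cases (43.5%, 95% exact interval 39.3 to 47.8), with a median of 303 for the proximal peaks and 362 for the highest promoter peak of the same gene. The Gcm word was found at 49 of the proximal peaks (9.04%) and at 19 of their promoter peaks (3.51%). Genes with several proximal peaks enter this count more than once, and the interval takes no account of that.

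A TSS of a noncoding gene lay within 500 bp of 22 downstream summits (3.52%) and 46 upstream summits (8.86%), beside 5.61% of all IDR-thresholded peaks. The sides differed by -5.34 points (-8.18 to -2.50). The noncoding gene was annotated as ncRNA at 61 of these 68 summits and as tRNA at 4. The loco peak with the Gcm word was among them, 499 bp from the start of lncRNA:CR43475.

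The 1144 peaks were nearest to 936 of 13945 protein-coding genes, 6.71% of them. Of these genes 778 had 1 peak, 119 had 2, 29 had 3, 9 had 4 and CHES-1-like, a forkhead transcription factor gene on the X chromosome, had 5. Counted over all their TSS, 73 genes had both downstream and upstream peaks, and 117 genes had a peak with the Gcm word. The 5 CHES-1-like peaks had signals of 370 at 627 bp downstream, and 876, 871, 641 and 233 at 1708, 617, 1718 and 1475 bp upstream. The downstream one and the one at 1475 bp upstream held the word. The 9 genes with 4 peaks were Alh, CG32264, CG9837, Tlk, jing, pnt, shn, shot and tou.

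Several lists of developmental genes were read against that 6.71%, with counts alone. The genes were not matched for length or number of TSS, which change how much sequence lies at this distance. Among other glial genes 4 of 17 were nearest to a promoter-proximal peak, namely drpr, Gs2, htl and Lac. Gs2, a glutamine synthetase gene, had a signal of 515 at 557 bp downstream, with 287 in replicate 1 and 229 in replicate 3. Among blood cell genes it was 4 of 27, with 4 peaks, all upstream. Those at NimC4 and crq, genes for phagocytic receptors, held the Gcm word, beside 10.3% of all promoter-proximal peaks. No peak held it in the lists of neuron, Notch, EGF receptor and ETS, JAK/STAT, or muscle and mesoderm genes. The same was true of the trachea, midline and epidermis, ecdysone, ribosomal protein and chemoreceptor lists, and each remaining list had 1 or 2 such peaks. The GATA factor gene srp had a signal of 525 at 1275 bp upstream, with 328 in replicate 1 and 202 in replicate 3. Of neuroblast and proneural genes it was 6 of 24, led by brat, which restrains neuroblast growth, with a signal of 1032 at 714 bp upstream. The 6 peaks of that list were all upstream as well. Few peaks stand behind the blood cell and neuroblast lists, and 45.4% of all promoter-proximal peaks were upstream. Of neuron genes it was 2 of 15, elav and Syx1A.

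Among the 16 lists, that of BMP, Wnt and Hedgehog genes had the most peaks. Of BMP, Wnt and Hedgehog genes, 11 of 24 were nearest to 19 promoter-proximal peaks with a median signal of 304, beside 306 for all promoter-proximal peaks. The Wnt receptor gene fz had a signal of 873 at 1764 bp upstream, with 447 in replicate 1 and 411 in replicate 3, values shared with the overlapping peak at 1563 bp upstream (signal 191), and a peak with the Gcm word at 1952 bp downstream with 529. The zinc finger gene shn, which acts in BMP signalling, had 4 peaks, the highest with 841. Of JAK/STAT genes it was 4 of 12, with chinmo at 1041, of EGF receptor and ETS genes 5 of 16, with edl at 1057 and aop at 815, and of Notch pathway genes 5 of 19, with neur at 393. Muscle and mesoderm genes had 6 of 18, led by mbc at 787 and counting htl, already among the glial genes, again. Hox genes and cofactors had 3 of 11, led by Abd-B. Trachea, midline and epidermis genes had 3 of 12, axon guidance genes 3 of 14 and ecdysone response genes 3 of 10.

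Cytoplasmic ribosomal protein genes and chemoreceptor genes stood low, again without matching for gene length or number of TSS. Of 92 ribosomal protein genes, RpS23 alone was the nearest gene of promoter-proximal peaks, with signals of 212 downstream and 218 upstream, while 68 (73.9%) had a summit within 500 bp of a TSS. Of 119 odorant and gustatory receptor genes, 2, Gr89a and Gr93a, were nearest to a promoter-proximal peak, with signals of 482 and 219, and 0 had a promoter summit.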

How the data were processed

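The authors deposited 4 peak lists on dm6: 1 per replicate, 1 from pooled replicates (30000 peaks each) and the IDR-thresholded list (5707), per the file descriptions. The height is the signal that the authors' caller deposited per peak. The deposited −log10 q-value sat at its ceiling for all 5707 peaks and was not used. Aligner, caller and IDR threshold: not given in the sources used here. Depth is unknown, so precision could be given only as counting intervals over peaks.

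Start sites were those of Ensembl release 115 (BDGP 6.54), bases were read from the dm6 assembly, and 0 peaks lay past an arm's end. Of the 1144 peaks, 18 had tied nearest genes on the same side. Members that shared an interval with another peak (35) were kept. Intervals and exact McNemar tests, two-sided with a threshold of 0.05, were computed with Python 3.11.15, NumPy 2.4.6 and SciPy 1.17.1, and the code was tested on simulated data. A difference of shares has a normal-approximation interval and a density a Poisson interval. Replicate peaks were matched by at least 1 bp, taking the highest.

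The named genes are the 6 highest members and the 4 highest with the Gcm word per side, members at gcm, gcm2, repo, pnt, loco and ttk, the 2 highest of each list, genes with 4 or more members, and those nearest each bound. Members and the 16 gene lists were chosen with earlier results of these data known. Other settings varied the TSS set, distances, windows, word, flank, overlap and peak list.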

Additional observations from a re-analysis of the deposited data

Results flagged for a closer look

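Peaks of the pooled list that did not reach the IDR-thresholded set were used in no comparison above, and they too carried the Gcm word near their summits more often than beside them. Of 2883 such peaks over 500 and up to 2000 bp downstream of a TSS, 140 (4.86%, 95% exact interval 4.10 to 5.71) held the word within 100 bp of the summit, against 1.25% of the windows 1000 bp to the left (exact McNemar test, adjusted p = 2.24e-16). Of 2328 upstream peaks, 87 (3.74%, 3.00 to 4.59) held it, against 0.816% of the left windows (exact McNemar test, adjusted p = 8.22e-12). The adjustment covered the downstream and the upstream test alone. How many of these peaks lay close to an IDR-thresholded summit was not counted. The signal of these peaks below the IDR-thresholded set ranged between 37.8 and 190 in the pooled list. All 5707 IDR-thresholded peaks were among the highest of that list, so the 2 sets are separated by signal.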

How the results depend on the processing

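The Gcm word passed the test on each side under every setting tried, flanks relative to the TSS (chosen after seeing the data) included. Its share ranged between 5.44% and 13.3% downstream and between 3.85% and 13.1% upstream, lowest for the single word ATGCGGGT. The difference between the sides was -0.863 points (-4.41 to 2.68) with TSS of all biotypes. With 1 TSS per gene, TSS of all biotypes and the 2853 highest peaks, the promoter-proximal share was 18.9%, 22.2% and 20.8%, the upstream share of it 42.0%, 44.3% and 46.3%, and the share at genes with a promoter summit 28.0%, 42.5% and 27.3%. With an upper distance of 1500 bp the first 2 were 15.0% and 44.8%, and with promoters cut at 250 bp the last was 35.9%. The share in both replicates' strongest peaks was 57.8% with reciprocal overlap, 75.7% for summits within 100 bp, 99.2% in whole lists and 99.2% among the 2853 highest, where the ratio of median signals was 0.978 against 1.02. With windows of 50 bp each side, 2 motifs passed downstream (Gcm and GATA) and 1 upstream (Gcm), and with right flanks 2 passed downstream (Gcm and GATA). With windows of 250 bp each side, GAGA passed downstream, and so did DRE and M1BP, both lower at the summit. With 1 TSS per gene, GATA, GAGA and homeodomain passed downstream. Against flanks on the side of the TSS, GATA passed on each side. There M1BP and Stat92E passed downstream and Runt upstream, all lower at the summit. In the lists of single replicates, the upstream share was 44.7% to 45.4%, the ratio 1.01 to 1.03, and the motifs passing 1 to 2 downstream and 2 to 3 upstream. Without replicate 3, Stat92E (lower at the summit) passed downstream and homeodomain upstream. The cause of these shifts was not tested. No paired analysis was possible because the replicates form 1 group. Depth is unknown, and shares of rare words rest on few peaks.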
